A study of Mus musculus with 4 samples.

Results

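The late granule and alarmin genes described here were 10 genes chosen by name, S100a8, S100a9, Ltf, Ngp, Camp, Lcn2, Retnlg, Cd177, Mmp8 and Adam8, out of 32272 genes in the deposited matrix. Their chromatin was read from the 159 of 174339 peaks that lay within 50 kb of the start of a member. The study sorted lineage-negative, cKit+ HSPCs (Lin-cKit+) from the marrow of young male C57BL/6 mice of 2 groups, Lig mice carrying silk ligatures on their molars and Ctrl mice left untreated, at day 14 in each group. Marrow of several mice was pooled per group, nuclei were run through single-nucleus multiomics (RNA and ATAC from each nucleus), and the labels list 4 samples, the RNA and the ATAC library of 1 Ctrl and 1 Lig pool. Nuclei in the matrix carry a barcode suffix, 1 or 2, that no label ties to Ctrl or Lig. They are therefore called library 1 and library 2, could not be assigned to a group, and no comparison of Lig with Ctrl was made. Whether the libraries differ by group or by preparation cannot be told apart here. With 1 library of each kind there is no replicate error and no test. The intervals given are exact 95% intervals for counting error only.

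Neutrophils fill their granules in sequence as they mature in the marrow. Primary granule proteins such as myeloperoxidase are made first, by granulocyte-monocyte progenitors (GMPs) and promyelocytes. Secondary granule proteins such as lactoferrin and cathelicidin follow at the myelocyte stage, and gelatinase granule and membrane proteins come later. S100A8 and S100A9 are calcium-binding proteins that pair as calprotectin, fill much of the neutrophil cytosol, and act as alarmins when released.

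Of 18961 barcodes, 13619 were kept (200 or more genes and 1000 to 50000 peak counts), 5905 in library 1 and 7714 in library 2, with 10294527 and 12537328 UMIs. Between the libraries, 146 barcode sequences were shared, and 72 of them were kept in both. Nuclei were clustered without the 10 members and without their peaks. Of 20 clusters, 14 were named for 13 classes from fixed markers and 6 stayed unnamed. The neutrophil progenitor-like (NeuP-like) cluster held 469 nuclei, 176 in library 1 and 293 in library 2, and had 13 of 14 NeuP markers raised. Its leading genes by fold were Slfn4, Thbs1, Il1r2, Ifitm6, Chil3, Mmp9, Mmp25, Itgb2l, 1700047M11Rik and Ly6g. Of these, Il1r2, Mmp9, Mmp25 and Ly6g are known from maturing and mature neutrophils, and the others were not read for stage. The NeuP markers Fcnb and Abca13 were raised too, at 75.9 and 13.6 times and at 202 and 25.5 times the background defined below. The primary granule genes Mpo and Elane, which mark earlier progenitors, stood at 1.25 and 1.18 times and at 1.02 and 1.13 times the background defined next, so NeuP-like is the name of the marker list and sets no progenitor stage. The sorted population was labelled lineage-negative, yet 274 B-like and 202 NK/T-like nuclei were named from markers of those lineages. The lineage cocktail of the study also held antibodies to CD11b, the Itgam product, and to Gr-1. NeuP-like nuclei had Ly6g among their leading genes and carried Itgam RNA (values below), though RNA is not surface protein. The background was read in 653 erythroid (EryP-like) nuclei and in 1895 B nuclei (pro-B-like and B-like), lineages that should not make these proteins, and the higher of the pair was used. Levels are UMIs per 1000000 UMIs of all genes in the same nuclei (CPM), and for ATAC, counts per 1000000 counts in all peaks (ATAC CPM). Transcripts of the ribosomal RNA locus bear on every CPM here. They took 43.0% of UMIs in library 1 and 53.2% in library 2, and their share was not the same in every class. Without the locus in the total, the summed member fold of NeuP-like nuclei over background was 109 and 38.9, beside 84.8 and 31.9 with it.

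The members were concentrated in the NeuP-like nuclei. Summed over the 10 genes, their level there was 17371 CPM (16804 to 17953) in library 1 and 15173 CPM (14804 to 15550) in library 2. Erythroid nuclei had 205 CPM (170 to 245) and 476 CPM (417 to 541), and B nuclei had 181 CPM (163 to 201) and 400.3 CPM (359 to 445). NeuP-like nuclei thus stood 84.8-fold (70.8 to 102) above background in library 1 and 31.9-fold (28.0 to 36.5) in library 2. They made up 2.98% and 3.80% of the nuclei and held 66.0% (64.7 to 67.2) and 56.6% (55.7 to 57.5) of the member UMIs in kept nuclei. With only nuclei of 500 or more genes, the levels were 9860 and 6905 CPM, the folds 49.5 and 19.1, and the shares of member UMIs 28.6% and 29.8%, and without the ribosomal RNA locus in the total the levels were 37670 and 38855 CPM. A NeuP-like nucleus carried a median of 19 member UMIs in library 1 and 20 in library 2, against 0 in erythroid nuclei of library 1 and 0.5 in those of library 2. In the other 18 classes and clusters, the summed level ran from 132 CPM to 482 CPM in library 1 and from 320 CPM to 826 CPM in library 2, so the NeuP-like level was 36.0 and 18.4 times the highest of them.

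**Figure D1:**
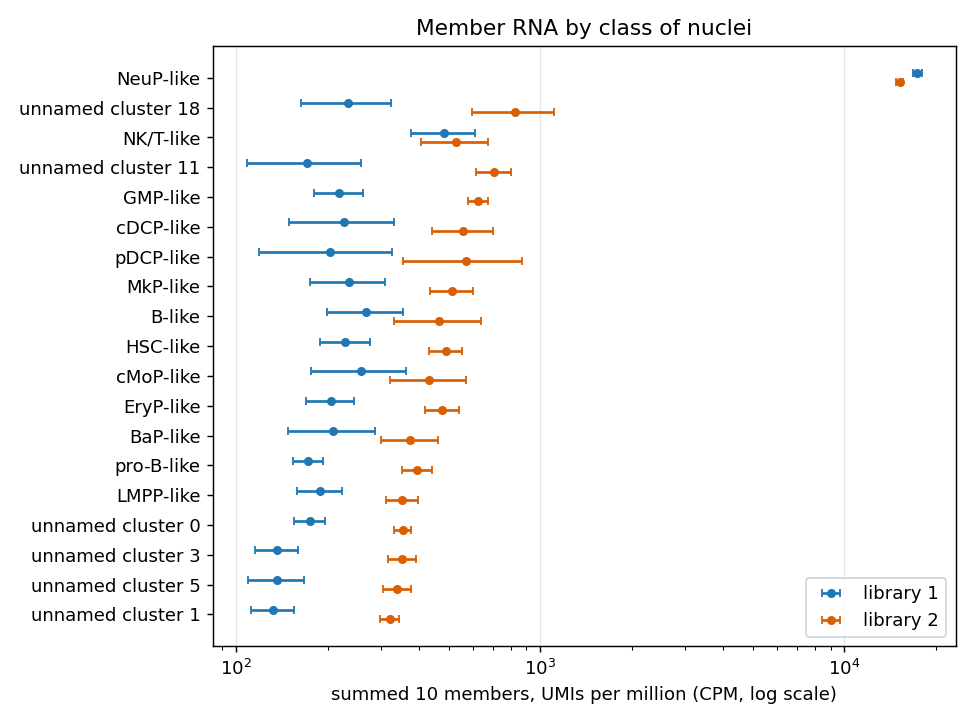
Summed CPM (log scale) of the 10 members in each class or unnamed cluster, by library; bars are exact 95% Poisson intervals for counting error. NeuP-like nuclei sit at 17371 and 15173 CPM, and every other class lies between 132 and 826 CPM, with library 2 above library 1.

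The alarmin pair gave the most member UMIs. S100a8 (ENSMUSG00000056054), on GRCm38 at chr3:90668978-90670035, had 4034 CPM (3763 to 4319) in NeuP-like nuclei of library 1 and 4320 CPM (4124 to 4523) in those of library 2. The erythroid level of S100a8 was 63.8 CPM (45.2 to 87.6) in library 1 and 152 CPM (120 to 190) in library 2. That made the NeuP-like level 63.2-fold (45.7 to 90.0) and 28.4-fold (22.6 to 36.3) that of the background, with no overlap of the intervals in either library. S100a9 (ENSMUSG00000056071), its partner on the opposite strand at chr3:90692632-90695721, had 5426 CPM (5111 to 5755) and 5867 CPM (5639 to 6103), against 70.5 CPM (50.8 to 95.3) and 178 CPM (143 to 220) in erythroid nuclei. Its folds were 76.9 (56.5 to 107) and 32.9 (26.6 to 41.2). A UMI of S100a9 was seen in 93.8% and 98.0% of NeuP-like nuclei, but also in 11.2% and 22.7% of erythroid nuclei, whose median depth was larger (1580 and 1324 UMIs against 914.5 and 1237). Thinned to 500 UMIs per nucleus, the share of NeuP-like nuclei with an S100a9 UMI was 85.5% (173 nuclei) and 86.3% (292 nuclei), leaving out 3 and 1 shallower ones, beside 3.06% and 10.6% of erythroid nuclei at the same depth.

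Among the secondary granule genes, Ngp (ENSMUSG00000032484, chr9:110419747-110423012), which encodes neutrophilic granule protein, came first with 3279 CPM (3035 to 3537) and 1981 CPM (1849 to 2120) in NeuP-like nuclei. Erythroid nuclei had 31.9 and 50.6 CPM of it, so the folds were 103 (65.3 to 172) and 39.1 (26.3 to 60.8). Camp (ENSMUSG00000038357, chr9:109847379-109849617), the cathelicidin gene, had 1701 CPM (1527 to 1890) and 1164 CPM (1063 to 1271), and its higher background was 20.1 CPM in B nuclei of library 1 and 54.7 CPM in erythroid nuclei of library 2. Ltf (ENSMUSG00000032496, chr9:111019271-111042767), which encodes the iron-binding lactoferrin, had 1304 CPM (1152 to 1470) and 818 CPM (734 to 909), against at most 11.8 and 18.6 CPM in the background. Lcn2 (ENSMUSG00000026822, chr2:32384633-32388252), which encodes the siderophore-binding lipocalin 2, had 412 CPM (328 to 510) and 322 CPM (270 to 381), against at most 4.02 and 9.31 CPM. Each of these genes had the higher value in NeuP-like nuclei of library 1 and the higher background value in library 2, with intervals of the library ratio that included 1 for Lcn2 in both kinds of nuclei and for erythroid Ltf and Ngp.

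Among the remaining members, Retnlg had more UMIs than Lcn2, and Mmp8, Cd177 and Adam8 had the fewest of the 10 members. Retnlg (ENSMUSG00000022651, chr16:48872621-48874496), a resistin-like secreted protein, had 524 CPM (430 to 634) and 370 CPM (314 to 432) in NeuP-like nuclei, 104-fold (34.7 to 513) and 30.4-fold (13.7 to 84.1) the background. Mmp8 (ENSMUSG00000005800, chr9:7558456-7568485), neutrophil collagenase, had 284 CPM (216 to 368) and 142 CPM (109 to 183). Cd177 (ENSMUSG00000052212, chr7:24743983-24760311), a surface glycoprotein of neutrophils, had 191 CPM (136 to 261) and 123 CPM (92.0 to 162). Adam8 (ENSMUSG00000025473, chr7:139978932-139992562), a membrane metalloprotease, had 216 CPM (157 to 290) and 66.4 CPM (44.1 to 95.9). Background counts of these last 3 genes were 0 to 5 UMIs per pool, so their folds were poorly bounded: 113 (45.8 to 362) and 61.1 (16.2 to 516) for Mmp8, 56.9 (14.7 to 487) and 52.9 (13.9 to 449) for Cd177, and 429 (73.1 to 17336) and 32.8 (5.42 to 1339) for Adam8. With the background set to no less than 3 counts of the B pool, as in the count of folds that follows, they were 113 and 40.7 for Mmp8, 56.9 and 35.3 for Cd177, and 143 and 19.0 for Adam8. Adam8 overlaps 2 annotated RNA genes, Gm16201 on the other strand and Mir7062 on its own, so reads there may be shared.

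**Figure D2:**
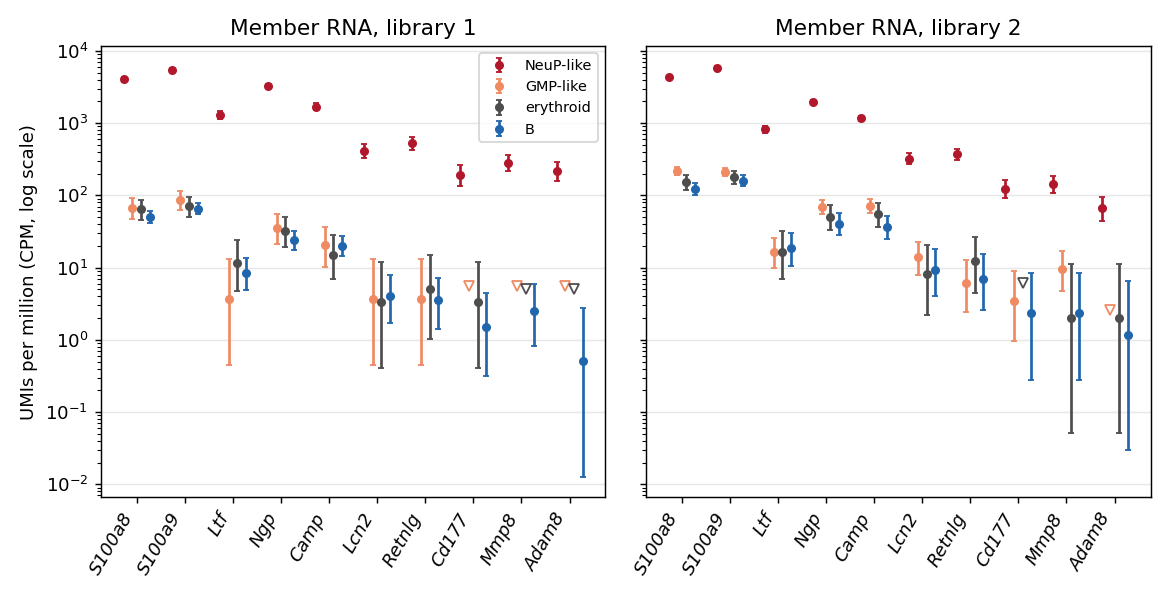
CPM (log scale) of each member in NeuP-like, GMP-like, erythroid and B nuclei, 1 panel per library, with exact 95% Poisson intervals; open triangles mark pools with 0 UMIs, drawn at the level of 3 counts. In both panels each NeuP-like point lies above the other classes, from S100a9 at 5426 and 5867 CPM down to Cd177 at 191 CPM in library 1 and Adam8 at 66.4 CPM in library 2.

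All 10 members reached at least 4-fold above both background pools in both libraries. Among the 652 genes with 20 or more UMIs in NeuP-like nuclei of each library, 55 did so (8.44%). Every member passed that minimum. Since nuclei were grouped by genes that are expressed along with the members, this count describes the class and is no test.

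Divided by the gene span in kb, exons and introns together, the order of the members in NeuP-like nuclei differed from that of the raw levels. Whether UMIs scale with span was not tested. S100a8 led with 3813 and 4083 CPM per kb, ahead of S100a9 (1756 and 1899), Ngp (1004 and 607) and Camp (760 and 520 in the 2 libraries). Retnlg had 280 and 197 CPM per kb, Lcn2 114 and 89.0, and Ltf, the longest of them, 55.5 and 34.8. Mmp8 (28.3 and 14.2), Adam8 (15.8 and 4.87) and Cd177 (11.7 and 7.55) were lowest, and the order of the last pair turned between the libraries.

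The libraries differed in the mix of members. In NeuP-like nuclei, S100a8 and S100a9 together were 54.5% (52.8 to 56.1) of the member UMIs in library 1 and 67.1% (66.0 to 68.3) in library 2. The pair's own level was 1.08 times as high in library 2 (1.02 to 1.14), and the other 8 members together stood at 0.630 (0.590 to 0.673). Each of the 8 had the lower value in library 2, though the intervals of Lcn2 and Cd177 reached 1. Their ratios ran from 0.783 (0.592 to 1.04) for Lcn2 and 0.684 (0.595 to 0.787) for Camp to 0.500 (0.343 to 0.730) for Mmp8 and 0.308 (0.184 to 0.505) for Adam8. Without the ribosomal RNA locus in the total, the pair's ratio was 1.27 and that of the other 8 together was 0.744, and each of the 8 still had the lower value in library 2. The sum of all 10 turned from 0.873 (0.838 to 0.910) to 1.03 with that change, so it has no stated direction. No label ties these libraries to Ctrl or Lig, and how the ratio arises was not tested.

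Member UMIs were also present at a low level in every class other than NeuP-like, and there library 2 had the higher summed value. The summed level was higher in library 2 in 18 of 18 other classes and clusters, by 1.09 to 4.10 times (median 2.30). The lowest ratio, in NK/T-like nuclei, had an interval that included 1 (0.763 to 1.56), and the highest was that of unnamed cluster 11 (2.66 to 6.60). Nuclei with 10 or more member UMIs, given below, weighed on both ends of this range. In erythroid nuclei the ratio was 2.32 (1.86 to 2.92) and in B nuclei 2.21 (1.90 to 2.57). The alarmin pair made up 65.6% (56.4 to 73.9) of member UMIs in erythroid and 64.3% (59.1 to 69.2) in B nuclei of library 1, above its 54.5% in NeuP-like nuclei there. In library 2 the shares were 69.4% (63.0 to 75.2), 70.6% (65.5 to 75.4) and 67.1%, and the intervals of all 3 overlapped. Ngp took 15.6% and 10.6% of the member UMIs in erythroid nuclei, beside 18.9% and 13.1% in NeuP-like nuclei. The level in these unrelated lineages was taken as the floor for reading any other class. The source of those UMIs was not tested.

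**Figure D3:**
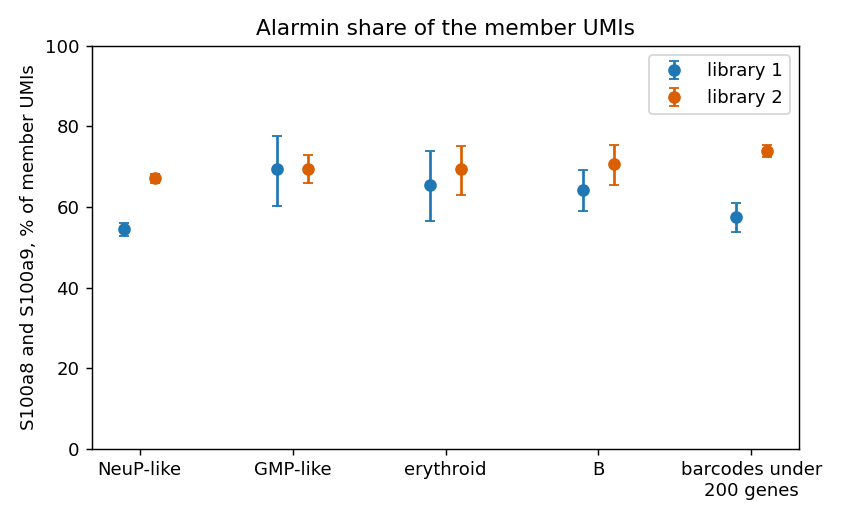
S100a8 and S100a9 as a percentage of the UMIs of all 10 members in 4 kinds of kept nuclei and in barcodes left out for having under 200 genes, by library, with exact 95% binomial intervals. Library 1 ranges from 54.5% in NeuP-like to 69.5% in GMP-like nuclei, and library 2 from 67.1% in NeuP-like nuclei to 74.0% in the barcodes left out.

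In GMP-like nuclei the members were at that floor in library 1, and in library 2 above it with all nuclei included. These levels keep the ribosomal RNA locus in the total. Without the locus, the library ratio of the summed members was 3.30 in GMP-like and 2.89 in erythroid nuclei, beside 2.86 and 2.32 with it. The GMP-like fold over background without the locus is not given here. The summed level was 218 CPM (180 to 261) in library 1, 1.06 times the background (0.819 to 1.38), and 623 CPM (578 to 671) in library 2, 1.31 times (1.13 to 1.52). Of the 668 GMP-like nuclei in library 2, 8 carried 10 or more member UMIs and held 21.8% of the UMIs, while 1 of 322 erythroid nuclei there carried 10 and held 4.26%. Without those 8 nuclei the GMP-like level in library 2 was 495 CPM (455 to 538), beside 476 CPM (417 to 541) in the erythroid pool with its own such nucleus kept, and leaving out nuclei for their member UMIs lowers the level by construction. With each nucleus thinned to 500 UMIs, 11.3% (7.97 to 15.3) and 19.6% (16.7 to 22.9) of GMP-like nuclei had a member UMI, against 11.7% and 20.1% of B nuclei and 7.65% and 24.2% of erythroid nuclei. Unthinned shares were 25% and 50.3% in GMP-like nuclei at median depths of 1632.5 and 1598.5 UMIs. Only S100a8 and S100a9, 2 of the 10, had enough UMIs in GMP-like nuclei to be counted in the 4-fold comparison and 0 reached it, where 1.08% of 2680 genes did.

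Other nuclei outside the NeuP-like cluster also carried 10 or more member UMIs. Single ones were found in GMP-like and LMPP-like nuclei of library 1, in MkP-like nuclei of library 2 and in the background of library 2, as the erythroid nucleus above and a pro-B-like nucleus with 24 UMIs, 6.98% of those in B nuclei. The largest shares were in 3 classes or clusters, where the levels without these nuclei are lower by the choice itself. In NK/T-like nuclei of library 1 the summed level was 482 CPM (375 to 610), and 1 nucleus of 110 held 39.1% of it; the level was 298 CPM (215 to 403) without it. Unnamed cluster 18 of library 2 had 826 CPM (598 to 1112), with 34.9% in 1 nucleus of 32, and 548 CPM (364 to 792) without it. Unnamed cluster 11 of library 2 had 702 CPM (612 to 801), with 32.4% in 2 of 222 nuclei, and 480.5 CPM (406 to 564) without them. No doublet caller was applied, and whether these barcodes hold more than 1 nucleus was not tested.

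Within the NeuP-like nuclei, the members' level was lowest in the nuclei with the most genes detected. In library 1 the summed level was 19328 CPM (18321 to 20377) in 93 nuclei with fewer than 300 genes, 21077 CPM (20060 to 22132) in 60 nuclei with 300 or more but fewer than 500, and 9860 CPM (9056 to 10715) in 23 nuclei with 500 or more. The level in library 2 was 19380 CPM (18804 to 19968) in 201 nuclei, 13892 CPM (13184 to 14628) in 60 nuclei and 6905 CPM (6391 to 7449) in 32 nuclei of the same bins. Counted per nucleus, the members gave 14.8, 26.9 and 24.1 UMIs in library 1 and 21.4, 24.1 and 20.8 in library 2, so the fall in CPM at 500 or more genes went with larger totals of all UMIs (medians of 761, 1227 and 2353 UMIs in library 1 and of 1084, 1720 and 2707.5 in library 2). Single members varied in this. Camp had 1473, 2106 and 1439 CPM in the 3 bins of library 1 and 1363, 1329 and 528 CPM in those of library 2, and Mmp8 had 505, 262 and 35.5 CPM in library 1 and 212, 48.1 and 82.8 CPM in library 2. The other 8 members together were lower in library 2 than in library 1 in each bin, 6045 against 8191 CPM, 5179 against 9917 CPM and 2350 against 4832 CPM. Per nucleus they gave 6.66 against 6.28 UMIs in the smallest bin, the other order, and 8.97 against 12.6 and 7.09 against 11.8 UMIs in the larger ones.

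Nuclei with a primary granule UMI had a lower level of the members in CPM, but not fewer member UMIs per nucleus in library 2. Of the NeuP-like nuclei, 96 in library 1 and 227 in library 2 had a UMI of 1 of 6 primary granule or promyelocyte genes (Mpo, Elane, Prtn3, Ctsg, Ms4a3 and Prss57), and 80 and 66 had none. The summed member level was 15091 CPM with such a UMI and 20641 CPM without in library 1, a ratio of 0.731 (0.684 to 0.781), and 14385 and 18829 CPM in library 2, a ratio of 0.764 (0.720 to 0.811). Per nucleus the members gave 18.9 UMIs with and 21.6 without in library 1, and 22.0 with and 21.3 without in library 2. S100a9 had ratios of 0.679 (0.602 to 0.765) and 0.771 (0.701 to 0.850), and Ngp 0.667 (0.571 to 0.778) and 0.699 (0.595 to 0.825). Intervals for Lcn2, Retnlg, Cd177, Mmp8 and Adam8 included 1 in both libraries, and that for Ltf did so in library 1. Nuclei with a primary granule UMI were deeper (medians of 917 against 891.5 and of 1267 against 1106 UMIs). Erythroid and B nuclei held most of these genes at like levels, and whether such a UMI is background was not tested. Mpo, for instance, had 397 and 690 CPM in NeuP-like nuclei against 317 and 423 CPM in erythroid and 300 and 585 CPM in B nuclei.

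Other genes of the granulocyte programme were read from 5 lists. Of 8 primary granule genes, 4 had enough UMIs in NeuP-like nuclei and 0 reached 4-fold over background, with Mpo, myeloperoxidase, at 1.25 and 1.18 times, Prtn3, a serine protease, at 1.498 and 1.02 times, Srgn, a granule proteoglycan, at 1.08 and 0.791 times, and Elane, neutrophil elastase, at 1.02 and 1.13 times. These ratios keep the ribosomal RNA locus in the total and were not recomputed without it. The summed member folds were 84.8 and 31.9 with the locus and 109 and 38.9 without it. Of 18 other late granule and maturation genes, 9 had enough UMIs and all 9 reached 4-fold, 13 of the 18 having served as NeuP markers, so the direction was set by the naming. Chil3, a chitinase-like protein, had 569 and 441 CPM, Lyz2, lysozyme, 637 and 396 CPM, Cybb, the catalytic subunit of the phagocyte oxidase, 377 and 218 CPM, and Anxa1, annexin A1, 382 and 204 CPM. Of 11 genes of the S100 cluster on chromosome 3 around the alarmin pair, 1 had enough UMIs: S100a6, a calcium-binding protein, had 137 and 171 CPM in NeuP-like nuclei against at most 4.52 and 9.31 CPM in the background. S100a11, with 18 and 48 UMIs, fell short of the minimum and stood at 5.84 and 6.24 times the background, while S100a10 stood at 0.531 and 0.926 times. In that cluster S100a3, S100a5, S100a7a, S100a14 and S100a16 had 0 UMIs in NeuP-like nuclei of both libraries.

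Transcripts of granulocyte factors were scarce. Only Runx1 of 9 had enough UMIs, and it was lower in NeuP-like nuclei (274 and 218 CPM) than in B nuclei (827 and 467 CPM). Of the other 8, with 1 to 20 UMIs per library, Cebpe, the C/EBP factor known for driving secondary granule genes and itself a NeuP marker used in the naming, had 34.3 and 19.0 CPM against at most 4.52 and 6.08 CPM in the background, and Spi1, which encodes PU.1, had 78.4 and 42.7 CPM against at most 16.1 and 16.3. Cebpb (6.10 and 2.55 times the background, on 10 and 20 UMIs), Ets2 (8.36 and 1.61, on 12 and 11), Cebpd (2.66 and 2.57, on 3 and 11) and Cebpa (2.92 and 1.22, on 2 and 3) also had higher values than the background in both libraries. Foxo3, a forkhead factor, went the other way with 53.9 and 28.4 CPM against up to 168 and 64.8. So did Gfi1, on 1 and 3 UMIs, with 4.90 and 7.11 CPM against up to 18.6 and 10.5. Gfi1 encodes a transcriptional repressor, and the study lists GFI1 among factors associated with steady-state neutropoiesis. No intervals were computed for these factors, and the 1 to 3 UMIs of Cebpa and Gfi1 set no direction. Of 12 receptors and partners of the member proteins, Itgam (225 and 192 CPM) and Itgb2 (98.0 and 52.1 CPM), the chains of the Mac-1 integrin, had enough UMIs and both reached 4-fold. Pecam1, an adhesion molecule that CD177 binds, had 29.4 and 37.9 CPM against up to 120 and 81.5 CPM in the background. Tlr4, the receptor through which S100A8 and S100A9 signal, had 1 and 4 UMIs, and Ager had 0. The median of the lower fold over all 652 genes was 0.754, beside 1.02 for the primary granule list and 15.4 for the other late granule list.

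Across 26 sums of class and library and among genes with 100 or more UMIs, those with a pattern nearest to that of the summed members were Slfn4 (Pearson's r of log2(CPM + 1) = 0.84), Mmp9 (0.81), Wfdc21 (0.75), Ifitm6 (0.73), Fcnb (0.71), Arhgdib (0.68), Rflnb (0.67), Abca13 (0.67), Aff2 (0.66) and Chil3 (0.65). The members themselves had r from 0.71 (Cd177) to 0.99 (S100a9) with their own sum. Of those 10 genes, 6 (Mmp9, Wfdc21, Ifitm6, Fcnb, Abca13 and Chil3) were NeuP markers and Slfn4 led the cluster, so their likeness was in part set by the naming and the clustering. These sums share libraries, depth and the background described above, and r is given as a description.

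Chromatin at the members was open in the same nuclei, and the contrast was sharpest at the start sites. ATAC counts in the 159 peaks within 50 kb summed to 2099 ATAC CPM (2015 to 2185) in NeuP-like nuclei of library 1 and 1881 (1818 to 1946) in those of library 2. Erythroid nuclei had 870 (836 to 905) and 875 (836 to 916), which makes 2.41-fold (2.28 to 2.55) and 2.15-fold (2.03 to 2.28). Peaks within 10 kb gave 5.40-fold and 4.25-fold. At the 12 peaks within 1 kb of a start, the levels were 424 (387 to 464) and 335 (308 to 363) against 20.2 (15.3 to 26.2) and 21.3 (15.6 to 28.4), or 20.96-fold (15.9 to 28.1) and 15.7-fold (11.6 to 21.7). In NeuP-like nuclei with 500 or more genes these start peaks had 269 (211 to 338) and 173 (133 to 220) ATAC CPM. Unlike the RNA, accessibility at the starts was near the same in erythroid nuclei of both libraries.

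Member by member, the alarmin pair had the highest values at the starts, with 89.2 (72.5 to 108) and 55.0 (44.6 to 67.1) ATAC CPM for S100a9 and 71.3 (56.6 to 88.8) and 56.1 (45.6 to 68.3) for S100a8 in libraries 1 and 2. Their intervals overlap, so the order within the pair is not set. The S100a8 interval of library 1 also included the Ngp value (60.2). In library 2 the Adam8 value (43.4), a sum over 2 peaks, lay just under the lower ends of the pair's intervals. The rank of the pair over these members is therefore not set either. Erythroid nuclei had 0.710 and 0.927 at the S100a9 start. Ngp had 60.2 and 40.3, Adam8 53.0 and 43.4, and Camp 36.1 and 32.6 in NeuP-like nuclei. Cd177 had 34.8 and 28.1, Lcn2 28.1 and 23.2, Ltf 21.4 and 14.2, Retnlg 17.4 and 26.4, and Mmp8 12.5 and 15.3. The values of Adam8 and Retnlg are sums over 2 start peaks, and each other member had 1. All intervals of the folds over background lay above 1. Adam8 and Mmp8 stood low among them, at 4.53-fold (2.91 to 7.16) and 4.35-fold (2.67 to 7.39) for Adam8 and 4.84-fold (2.37 to 9.44) and 5.05-fold (2.52 to 10.7) for Mmp8. Erythroid nuclei had 11.7 and 9.96 ATAC CPM at the Adam8 start but 0 and 1 UMIs of its RNA.

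The start sites of several members were also accessible in GMP-like nuclei, in which intervals of their RNA folds over background mostly included 1. In GMP-like nuclei Camp had 20.3 and 71.6 CPM, 1.01-fold (0.468 to 2.01) and 1.31-fold (0.838 to 2.10), Lcn2 3.69 and 14.0 CPM, 0.919-fold (0.0951 to 4.61) and 1.5-fold (0.606 to 4.05). Mmp8 had 0 UMIs in library 1 and 11 UMIs in library 2, where its 9.60 CPM was 4.13-fold (0.901 to 38.3) over 2 UMIs of the background. The 12 start peaks had 90.8 ATAC CPM (81.5 to 101) in GMP-like nuclei of library 1 and 112 (104 to 120) in those of library 2, 4.49-fold (3.39 to 6.05) and 5.24-fold (3.89 to 7.22) the erythroid level. No other class or cluster was higher except NeuP-like. Camp had 21.6 and 23.5 ATAC CPM in GMP-like nuclei beside 36.1 and 32.6 in NeuP-like nuclei, Lcn2 had 11.8 and 15.3 beside 28.1 and 23.2, and Mmp8 11.9 and 9.35 beside 12.5 and 15.3. By contrast, S100a9 had 6.88 and 10.0 beside 89.2 and 55.0, Ngp 7.93 and 10.9 beside 60.2 and 40.3, and Ltf 3.57 and 3.80 beside 21.4 and 14.2. For Ltf, Retnlg and Adam8 the intervals of the GMP-like fold over background included 1 in both libraries. Of the 12 start peaks, 9 had enough counts in GMP-like nuclei and 6 were at least 2-fold above both background pools, where 18.3% of 80839 peaks were. Within 50 kb of the members' starts, 26 of the 99 peaks with enough counts in GMP-like nuclei were so.

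Values were also read by the number of member UMIs in a nucleus, though at this depth 0 UMIs does not mark a nucleus without member RNA. In GMP-like nuclei with 0 member UMIs, the start peaks had 89.8 ATAC CPM (79.1 to 101) in 234 nuclei of library 1 and 106 (95.6 to 118) in 332 nuclei of library 2. Erythroid nuclei with 0 member UMIs had 17.8 (12.4 to 24.6) and 23.9 (15.7 to 34.9). The 8 GMP-like nuclei of library 2 with 10 or more member UMIs had 259 (159 to 398). Outside GMP-like nuclei, the start peaks had 73.4 (54.2 to 97.2) and 54.1 (37.0 to 76.4) in cMoP-like (monocyte progenitor-like) nuclei, led by Mmp8 (16.6 and 15.2), Adam8 (19.7 and 13.5) and S100a8 (10.6 and 15.2), and 22.7 (17.4 to 29.1) and 31.3 (24.7 to 39.0) in HSC-like nuclei.

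**Figure D4:**
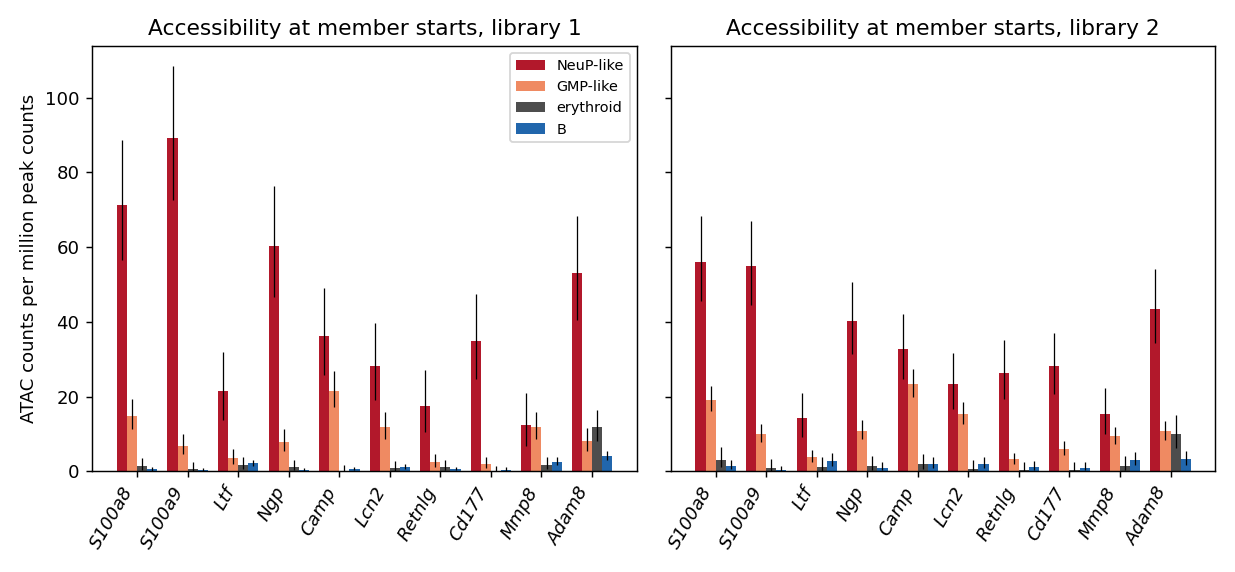
ATAC CPM in the peaks within 1 kb of each member's start in NeuP-like, GMP-like, erythroid and B nuclei, 1 panel per library; bars start at 0 and error bars are 95% Poisson intervals on pairs of counts. S100a9 reaches 89.2 and 55.0 in NeuP-like nuclei, and Camp, Lcn2 and Mmp8 also show GMP-like bars (21.6, 11.8 and 11.9 in library 1).

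Accessible sites were not limited to the starts. Of the 159 peaks, 63 had 20 or more counts in NeuP-like nuclei of each library, and 35 of these were at least 2-fold above both background pools in both libraries, where 24.4% of 23311 peaks of the whole matrix were. The median of the lower fold was 3.13 over the 63 peaks and 1.08 over all 23311. Of the 12 start peaks, 10 had enough counts and all 10 were among the 35. Within 10 kb of a start, 21 of 25 peaks reached 2-fold, and 14 of 38 did so farther out. The S100a8 and S100a9 starts lie 26.7 kb apart, their windows share 17 peaks, and 9 of the shared peaks were among the 35. Cd177 (4 of 4), Mmp8 (4 of 5) and Retnlg (3 of 4) also had most of their counted peaks among them, whereas Lcn2 had 2 of 9, Ngp 2 of 8 and Camp 2 of 5.

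Among peaks with 100 or more counts, that of largest fold lay within 1 kb of the start for Lcn2, Ngp, Camp, S100a9 and Cd177. In the S100a8 window it was the S100a9 start peak. Retnlg had no peak with that many counts, and for Mmp8, Ltf and Adam8 it lay elsewhere. At Mmp8 it was chr9:7567068-7567973, over an exon 9.06 kb past the start, with 27.2 and 29.5 ATAC CPM in NeuP-like nuclei, 15.6 and 15.9 in GMP-like nuclei and at most 3.73 and 4.63 in the background. At Ltf it was an intergenic peak at chr9:111045940-111046783, 27.1 kb past the start, where HSC-like nuclei were as high (21.1 and 26.3) as NeuP-like nuclei (26.3 and 21.3). The start peak of Cd177, chr7:24760955-24761846, was centred 1.09 kb upstream, with 34.8 and 28.1 against at most 0.437 and 0.933.

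Distal sites were also open beside the alarmin pair and Ngp, 3 peaks chosen after their values were seen. A peak at chr3:90659259-90660131, 9.28 kb upstream of the S100a8 start, had 47.3 and 34.3 ATAC CPM in NeuP-like nuclei, 7.80 and 9.06 in GMP-like nuclei, and at most 1.06 and 0.583 in the background. Another lay at chr3:90678397-90679264 between the alarmin genes, with 17.4 and 17.9 against at most 0.437 and 0.467. A peak at chr9:110415005-110415898, 4.30 kb upstream of Ngp, had 65.1 and 42.5 in NeuP-like nuclei, beside 60.2 and 40.3 at the Ngp start itself, but 2.38 and 5.70 in GMP-like nuclei. At Adam8 the largest fold was at chr7:139984273-139985171, over an exon 7.84 kb past the start, which had 62.0 and 45.1 in NeuP-like nuclei, 43.9 and 38.1 in cMoP-like nuclei and at most 1.24 and 2.80 in the background.

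**Figure D5:**
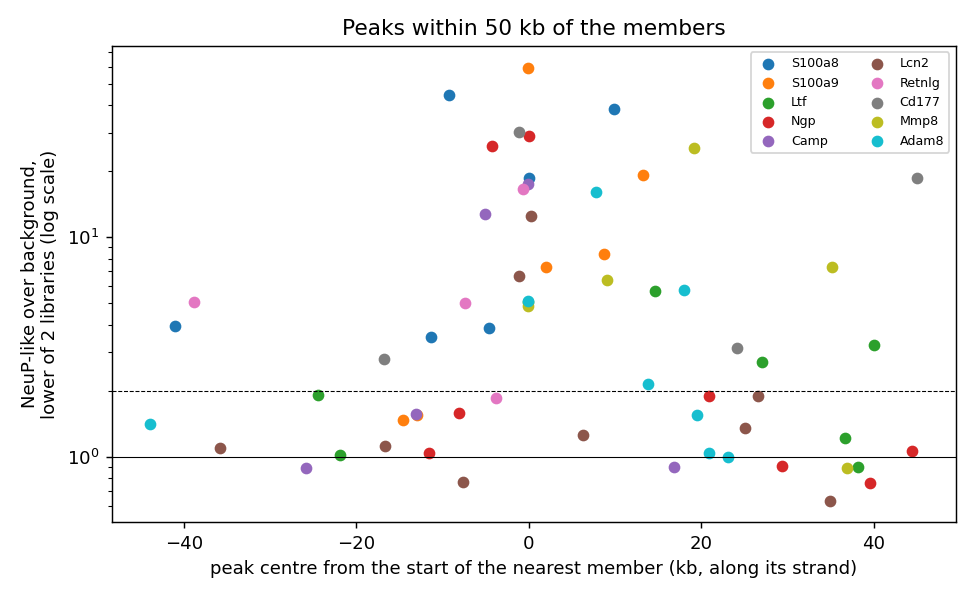
Each point is 1 of the 63 peaks with 20 or more counts in NeuP-like nuclei of each library, placed by the distance of its centre from the start of the nearest member (kb, along its strand) and by the lower of the libraries' folds of NeuP-like nuclei over background (log scale); the dashed line marks 2-fold. Points above the line cluster near 0 kb, with 21 of 25 within 10 kb and 14 of 38 beyond.

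The sequences of these sites were searched for letters of factors known from myeloid promoters: TTGCNNAA for C/EBP, GAGGAA for ETS factors such as PU.1, and TGTGGT for RUNX, each on both strands. None of the 3 motifs contains another, though matches may overlap. All 10 members had a promoter in RefSeq (GRCm38.p6, 250 bases before to 50 after the start), whose starts need not be those of the gene spans given above. The C/EBP letters were in 7 of the 10, where 10.8% of 32851 promoters hold them, the ETS letters in 5 (28.3% of all promoters) and the RUNX letters in 2 (16.8%). In the central 300 bases of the 35 peaks above, the C/EBP letters were in 15, or 42.9%, beside 22.6% of the 159 member peaks and 14.2% of 174282 peaks. The ETS letters were in 20 of the 35 (57.1%, beside 47.2% and 40.7%) and the RUNX letters in 12 (34.3%, beside 25.8% and 29.7%). The 35 were chosen by fold, and the share among all 5681 peaks of such a fold was not computed. Of the 35, 10 are start peaks, which may hold the same letters as the promoters. A match is a description of letters and not a bound site. The upstream 250 bases of the 4 members with the most RNA and of Lcn2 are shown 5′ to 3′ on the strand of the gene, with matches to any of the 3 motifs in capitals. Camp has none here, although the central 300 bases of its start peak hold a C/EBP match, S100a8 has ETS letters only, and Ngp has 2 C/EBP matches, the nearer of them from base -11 to base -4 before the start.
S100a8, chr3:90668821-90669070 (+): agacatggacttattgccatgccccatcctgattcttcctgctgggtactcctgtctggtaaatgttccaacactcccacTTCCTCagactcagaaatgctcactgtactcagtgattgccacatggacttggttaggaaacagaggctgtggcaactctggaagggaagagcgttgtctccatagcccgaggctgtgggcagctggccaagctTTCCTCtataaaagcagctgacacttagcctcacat
S100a9, chr3:90695722-90695971 (-): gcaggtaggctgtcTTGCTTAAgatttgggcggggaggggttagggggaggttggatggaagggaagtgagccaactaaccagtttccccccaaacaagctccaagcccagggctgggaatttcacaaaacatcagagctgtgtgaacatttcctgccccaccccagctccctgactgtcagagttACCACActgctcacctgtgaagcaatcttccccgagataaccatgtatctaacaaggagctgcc
Ngp, chr9:110419558-110419807 (+): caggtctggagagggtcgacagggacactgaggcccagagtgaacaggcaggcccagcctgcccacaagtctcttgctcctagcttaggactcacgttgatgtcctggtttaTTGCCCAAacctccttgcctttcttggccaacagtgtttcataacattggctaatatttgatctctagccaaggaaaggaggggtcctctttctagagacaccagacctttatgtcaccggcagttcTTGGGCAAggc
Camp, chr9:109849457-109849706 (-): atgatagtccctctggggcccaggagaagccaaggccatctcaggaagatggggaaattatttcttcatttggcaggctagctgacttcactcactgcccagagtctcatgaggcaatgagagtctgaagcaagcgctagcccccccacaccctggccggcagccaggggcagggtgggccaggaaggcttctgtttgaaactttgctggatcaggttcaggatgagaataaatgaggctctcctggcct
Lcn2, chr2:32387740-32387989 (-): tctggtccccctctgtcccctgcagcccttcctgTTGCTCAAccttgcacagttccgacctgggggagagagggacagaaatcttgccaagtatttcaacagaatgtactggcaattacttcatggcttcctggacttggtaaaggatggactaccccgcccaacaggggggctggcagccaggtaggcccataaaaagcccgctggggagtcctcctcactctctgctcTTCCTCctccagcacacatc

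Stretches of 300 bases at the centres of the distal peaks upstream of S100a8 and of Ngp are shown on the forward strand of GRCm38 with the same capitals. They are given because these peaks, away from any start, were at least 26.0-fold above background in both libraries. That near S100a8 has 2 ETS matches and that near Ngp has 1 C/EBP and 1 RUNX match.
Upstream of S100a8, chr3:90659545-90659844 (+): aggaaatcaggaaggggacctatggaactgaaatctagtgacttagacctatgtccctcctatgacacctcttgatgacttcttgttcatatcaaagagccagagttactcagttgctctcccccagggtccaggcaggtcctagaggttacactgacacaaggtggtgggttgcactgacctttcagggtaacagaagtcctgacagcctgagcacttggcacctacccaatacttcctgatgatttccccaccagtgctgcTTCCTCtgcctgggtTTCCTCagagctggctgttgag
Upstream of Ngp, chr9:110415302-110415601 (+): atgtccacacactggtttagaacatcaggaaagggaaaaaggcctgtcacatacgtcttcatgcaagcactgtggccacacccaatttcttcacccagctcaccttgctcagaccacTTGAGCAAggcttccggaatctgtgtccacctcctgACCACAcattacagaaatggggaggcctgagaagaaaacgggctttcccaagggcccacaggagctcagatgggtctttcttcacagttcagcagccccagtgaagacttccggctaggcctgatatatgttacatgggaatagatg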

How the data were processed

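The authors made the deposited counts with Cell Ranger ARC 2.0.0 on GRCm38 (mm10), according to the submitters' processing notes, and pooled both libraries in 1 matrix. The values are raw: whole numbers of UMIs per gene (32272 genes) and of ATAC cut sites per peak (174339 peaks). Since 82.7% of the nonzero ATAC values were even numbers, their Poisson intervals were computed on pairs of counts.

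Nuclei were clustered with Seurat 5.3.0 in R 4.3.3 (30 RNA components, LSI components 2 to 30, anchors between libraries, weighted nearest neighbors, resolution 0.8), without the members, their peaks and 3 genes of the ribosomal RNA locus. A cluster took the class with most markers raised (log2 ratio of 1 or more, 10 or more UMIs), given at least 3 and a mean log2 ratio of at least 1. Of the pro-B-like clusters, 1 had no own marker but an LMPP marker among its 10 leading genes, and it was kept. No doublets were removed.

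UMIs and ATAC counts were summed per class and library in Python 3.11.15. CPM with exact Poisson intervals, shares with exact binomial (Clopper-Pearson) intervals and ratios with exact conditional intervals cover counting error only. With 1 library of each kind, no p-value was computed. Gene spans and peak annotation came from GENCODE M21 (99.6% of gene IDs matched), and sequences from RefSeq GRCm38.p6. Fold counts used features with 20 or more counts in the class in each library and a background of no less than 3 counts of the B pool. All 10 members are named, with the peak at each start and the peak of largest fold among those with 100 or more counts, and the 10 genes of most similar pattern among those with 100 or more UMIs. Of each list, up to 4 genes with the most UMIs in NeuP-like nuclei were named. Cebpa, Cebpb, Cebpd, Cebpe, Spi1, Ets2, Foxo3, Gfi1, S100a10, S100a11, Pecam1, Tlr4, Ager and the genes at 0 were named after their values were seen. The members and the lists were chosen with earlier results of these data known. The splits by genes detected, by primary granule UMIs and by member UMIs, and the GMP-like comparisons across all genes and peaks, were chosen after seeing the data.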

Additional observations from a re-analysis of the deposited data

Results flagged for a closer look

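Member RNA also appeared in barcodes that the filters left out, which no comparison used. In barcodes with under 200 genes, the 10 members summed to 926 CPM (861 to 996) over 2080 barcodes of library 1 and to 2681 CPM (2588 to 2775) over 1977 barcodes of library 2, above the kept erythroid and B nuclei of the same library. In library 2, 101 of these barcodes (5.11%) had 10 or more member UMIs and held 60.6% of them, and in library 1 there were 14 (0.673%), holding 32.2%. The alarmin pair made up 57.4% (53.7 to 61.0) and 74.0% (72.4 to 75.5) of the member UMIs there. Barcodes with 200 or more genes but peak counts outside the limits had 386 CPM (358 to 415) over 777 barcodes of library 1 and 786 CPM (732 to 844) over 508 of library 2. What these barcodes hold was not tested.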

How the results depend on the processing

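Of 119 values recomputed under alternatives, 82 moved by less than their counting interval, 37 by more, and 0 were marked as reversed. Many of these values are levels or shares, which have no direction to reverse. The library ratio of the summed members in NeuP-like nuclei was not among them. That ratio turned from 0.873 to 1.03 without the ribosomal RNA locus. Values follow in the order library 1 and library 2. Clusters of ATAC alone gave a NeuP-like RNA level of 18205 CPM in library 1 and a fold of 27.4 in library 2. Clusters of RNA alone gave levels of 17971 and 16323 CPM and 63.0% and 52.7% of member UMIs in NeuP-like nuclei. With only nuclei of 500 or more genes, the levels were 9860 and 6905 CPM, the shares of member UMIs 28.6% and 29.8%, the RNA folds 49.5 and 19.1, the ATAC levels 1709 and 1384 ATAC CPM and the ATAC folds 1.95 and 1.52. There the alarmin pair had 51.0% and 66.0% of member UMIs in NeuP-like and 64.96% in B nuclei of library 2, and the erythroid library ratio was 1.81. Without the ribosomal RNA locus the levels were 37670 and 38855 CPM, the folds 109 and 38.9 and the B library ratio 2.83. Peaks within 10 kb gave ATAC levels of 985 and 820 with folds of 5.40 and 4.25, peaks within 100 kb 3257 and 3005 with 1.88 and 1.70, and start peaks 424 and 335 with 20.96 and 15.7. Fewer nuclei, a smaller total or other peaks enter these values by construction.

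No value moved so at a clustering resolution of 0.4, without correction between libraries, or in both alternatives chosen after seeing the data (B nuclei without 1 cluster, and erythroid and B nuclei without those of 10 or more member UMIs). Several of these values could not move. Without 1 B cluster the background stayed erythroid, so the folds were unchanged. In library 1 no erythroid or B nucleus had 10 or more member UMIs, so that fold was unchanged too. At a resolution of 0.4 the NeuP-like class again held 469 nuclei, with unchanged levels and shares. No paired analysis was possible because the libraries could not be assigned to a group and no test was made. Each kind of library had 1 sample, so the spread between animals is unknown, and depth limits Cd177, Mmp8 and Adam8, with 28 to 60 UMIs per library in NeuP-like nuclei.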
